A study of Mus musculus with 22 samples.

Results

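Teneurins and latrophilins are 2 families of neuronal surface proteins that bind each other across the synaptic cleft, and the 6 of them encoded on autosomes are described here by the DNA modifications over their genes. The members are the teneurin genes Tenm2, Tenm3 and Tenm4 and the latrophilin genes Adgrl1, Adgrl2 and Adgrl3, which are 6 of the 21718 protein-coding genes with a measured 5mC bin. They were chosen by family, and each was followed over the bins that overlap its GENCODE vM21 span in mm10, which is 41 of 25664 bins of 100 kb for 5mC and 7 of 2581 bins of 1 Mb for 5hmC. All samples were bulk tissue from female C57BL/6 mice of 8 weeks, and the labels name no genetic change or treatment. Cortex (the cerebral cortex without hippocampus), the whole olfactory bulb and the whole cerebellum were profiled by TAB-seq, which reads 5hmC, in 3 libraries per tissue, and by oxBS-seq, which reads 5mC, in 3 cortex, 2 olfactory bulb and 2 cerebellum libraries. Replicates came from independent mice.

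Teneurins are large single-pass adhesion proteins whose extracellular part guides axon targeting and synapse formation. Tenm3 is known for matching projections in the visual system and hippocampus, Tenm4 is also required for oligodendrocyte differentiation, and Tenm2 is the teneurin best known as a latrophilin partner. Latrophilins are adhesion G protein-coupled receptors that bind teneurins and FLRT proteins, and Adgrl1 was first found as the receptor of the spider toxin α-latrotoxin. 5hmC is made from 5mC by TET enzymes and is abundant in neurons, where it lies mostly in gene bodies. In bulk tissue a change in the mix of cell types and a change of level within a cell cannot be told apart, which applies to every difference given here.

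The members differ in length and in the sequence at annotated RefSeq starts. Tenm2 spans chr11:36006656-37235964 on the minus strand (1229 kb, 13 bins of 100 kb), Tenm3 chr8:48227682-48843951 on the minus strand (7 bins), Tenm4 chr7:96171246-96911093 on the plus strand (9 bins), Adgrl3 chr5:81020138-81825133 on the plus strand (9 bins), Adgrl2 chr3:148815583-148990555 on the minus strand (2 bins) and Adgrl1 chr8:83900105-83941954 on the plus strand (41.9 kb, 1 bin). The promoter windows of 300 bases below, which reach from 250 bases before to 50 bases after an annotated start in RefSeq GRCm38.p6, are shown because the bin of 100 kb with the lowest 5mC held such a start in Adgrl3, Adgrl2 and Tenm4, and because the single bin of Adgrl1 was low in every tissue. That of Tenm2 is shown for comparison. The RefSeq starts used for Tenm2 (chr11:36944241), Adgrl2 (chr3:148954635) and Tenm3 (chr8:48674690) lie inside the GENCODE spans, downstream of their starts. RefSeq begins these minus-strand genes further upstream, at 37237053, 148989096 and 49522824. The starts used are thus internal to the genes, and distances along a gene are from the GENCODE start. Capitals mark CpG sites, the dinucleotides that both assays read, and each sequence is written along the strand of its gene.

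Adgrl3, chr5:81020321-81020620, plus strand: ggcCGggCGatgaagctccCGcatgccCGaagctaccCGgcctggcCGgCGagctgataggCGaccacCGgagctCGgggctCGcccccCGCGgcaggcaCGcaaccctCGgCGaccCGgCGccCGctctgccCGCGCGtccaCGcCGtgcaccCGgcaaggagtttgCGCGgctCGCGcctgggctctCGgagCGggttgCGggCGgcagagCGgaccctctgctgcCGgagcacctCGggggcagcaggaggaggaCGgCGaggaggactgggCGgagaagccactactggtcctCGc
Adgrl1, chr8:83899848-83900147, plus strand: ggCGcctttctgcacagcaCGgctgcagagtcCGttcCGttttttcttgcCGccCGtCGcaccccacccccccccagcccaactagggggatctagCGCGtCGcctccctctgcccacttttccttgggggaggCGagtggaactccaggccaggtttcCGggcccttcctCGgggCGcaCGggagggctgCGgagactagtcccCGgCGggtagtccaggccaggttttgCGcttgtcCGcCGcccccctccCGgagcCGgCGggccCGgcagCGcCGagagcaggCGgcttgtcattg
Tenm4, first start, chr7:96170994-96171293, plus strand: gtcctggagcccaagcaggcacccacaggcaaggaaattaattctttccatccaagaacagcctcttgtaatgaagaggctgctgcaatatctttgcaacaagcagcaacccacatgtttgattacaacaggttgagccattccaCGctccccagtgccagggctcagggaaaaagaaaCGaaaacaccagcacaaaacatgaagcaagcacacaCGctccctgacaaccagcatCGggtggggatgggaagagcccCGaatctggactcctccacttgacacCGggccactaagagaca
Tenm4, second start, chr7:96211421-96211720, plus strand: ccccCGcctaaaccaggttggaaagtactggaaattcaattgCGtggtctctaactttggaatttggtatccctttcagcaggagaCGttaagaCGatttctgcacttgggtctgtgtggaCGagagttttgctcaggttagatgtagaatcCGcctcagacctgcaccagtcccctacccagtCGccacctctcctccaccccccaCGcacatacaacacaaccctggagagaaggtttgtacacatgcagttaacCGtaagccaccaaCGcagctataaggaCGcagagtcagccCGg
Adgrl2, chr3:148954586-148954885, minus strand: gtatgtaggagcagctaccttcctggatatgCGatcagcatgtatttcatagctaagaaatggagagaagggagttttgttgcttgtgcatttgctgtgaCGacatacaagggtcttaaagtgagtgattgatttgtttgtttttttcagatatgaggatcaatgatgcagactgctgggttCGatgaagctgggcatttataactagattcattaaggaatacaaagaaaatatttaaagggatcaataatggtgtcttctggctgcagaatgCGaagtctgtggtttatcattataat
Tenm2, chr11:36944192-36944491, minus strand: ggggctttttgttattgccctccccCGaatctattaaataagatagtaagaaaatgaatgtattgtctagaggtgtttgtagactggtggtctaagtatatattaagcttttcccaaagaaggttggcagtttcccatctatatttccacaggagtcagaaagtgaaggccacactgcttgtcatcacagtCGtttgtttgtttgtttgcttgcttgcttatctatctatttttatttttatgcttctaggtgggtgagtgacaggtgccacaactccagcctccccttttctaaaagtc

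The Adgrl3 window holds 40 CpG sites and 3.91% of the 32851 RefSeq mouse promoter windows hold as many. It is the richest of 3 windows of Adgrl3 in the same bin, the others holding 21 (24.8%) and 20 (26.5%). For the other genes, the Adgrl1 window holds 28 (14.2% of windows hold as many), and the Tenm4 windows hold 6 and 12 (56.4% and 39.6%). The window at the internal start of Tenm2 holds 2, a number reached by 85.9% of windows, and that at the internal start of Adgrl2 holds 4 (68.6%). The window of Tenm3, also at an internal start, is not printed and holds 10. A bin of 100 kb is far wider than such a window, so its level is not the level of the promoter.

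The deposited level of a bin is a fraction from 0 to 1 with no read count, so the depth is unknown and precision was judged from the spread between libraries. Libraries of one tissue correlated at r = 0.947 to 0.982 across the 25664 bins of 5mC and 0.994 to 0.998 across the 2581 bins of 5hmC. Such a correlation does not show a shift of a whole library, and the cortex libraries ran from 0.660 to 0.687 in mean 5mC. Genome-wide mean 5mC was 0.677 ± 0.0147 (SD, n = 3) in cortex, 0.707 ± 0.00285 (n = 2) in the olfactory bulb and 0.731 ± 0.0114 (n = 2) in cerebellum, and mean 5hmC ran the other way, at 0.163 ± 0.00946, 0.145 ± 0.00431 and 0.0949 ± 0.00176 (n = 3 each). Differences between tissues are given as log2 ratios, that is as differences in log2(level/(1 − level)), and were tested with limma over 13995 distinct gene entries for 5mC and 3203 for 5hmC with Benjamini-Hochberg adjustment at 0.05. The standard error of a difference was 0.11 to 0.13 for 5mC and 0.07 for 5hmC. It was nearly the same for all members of a pair, because limma shares the spread across entries. A small adjusted p thus rests on this shared spread more than on the few libraries of the gene itself. Exact permutation of the libraries cannot give a p below 0.1, or below 0.333 for 5mC in cerebellum against olfactory bulb. The median entry itself moved, by 0.20 for 5mC in olfactory bulb against cortex, 0.33 in cerebellum against cortex and 0.13 in cerebellum against olfactory bulb, and for 5hmC by −0.23, −0.87 and −0.65 in the same pairs, so the members' differences are also given relative to this shift. With every library centred on its own median over all bins, the share of called 5mC entries that were higher went from 95.9% to 37.2%, from 93.3% to 31.5% and from 75.3% to 36.6% in these pairs, and that of called 5hmC entries from 3.5% to 56.2%, from 0.2% to 65.3% and from 0.9% to 64.7%.

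The first question was where the teneurin genes carried 5mC. All 3 carried more in cerebellum than in cortex or olfactory bulb. In olfactory bulb the level of Tenm2 was above cortex in every library, while those of Tenm3 and Tenm4 overlapped cortex. Mean 5mC over Tenm2 was 0.625, 0.652 and 0.598 in the cortex libraries, 0.708 and 0.705 in the olfactory bulb and 0.782 and 0.760 in cerebellum. These 3 groups were fully separate, with means of 0.625 ± 0.0271 (SD, n = 3), 0.707 ± 0.00194 (n = 2) and 0.771 ± 0.0161 (n = 2). On the log2 ratio scale Tenm2 was higher in olfactory bulb than in cortex by 0.53 (limma, adjusted p = 0.000178), in cerebellum than in cortex by 1.01 (6.16e-14) and in cerebellum than in olfactory bulb by 0.49 (0.000969; 0.0677 without the cerebellum library of replicate 1), which is 0.33, 0.68 and 0.36 beyond the median entry.

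Tenm3, the teneurin of topographic wiring, was at 0.667, 0.691 and 0.648 in cortex, 0.656 and 0.650 in the olfactory bulb and 0.784 and 0.768 in cerebellum. Cerebellum stood above both other tissues in every library, and the olfactory bulb values lay within the range of cortex. The log2 ratio was 0.78 higher in cerebellum than in cortex (limma, adjusted p = 2.05e-09) and 0.88 higher than in olfactory bulb (1.66e-09), or 0.44 and 0.75 beyond the median entry. The difference between olfactory bulb and cortex was −0.10 (0.481), and it was −0.32 and passed the test once libraries were centred (0.0106).

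Tenm4, which also acts in the oligodendrocyte lineage, followed the same order. Its level was 0.633, 0.642 and 0.611 in cortex, 0.627 and 0.617 in the olfactory bulb and 0.768 and 0.745 in cerebellum. Cerebellum again lay above every other library, and olfactory bulb overlapped cortex. The log2 ratio was 0.88 higher in cerebellum than in cortex (limma, adjusted p = 2.91e-11) and 0.92 higher than in olfactory bulb (2.75e-10), or 0.54 and 0.79 beyond the median entry. The olfactory bulb value was −0.04 relative to cortex (0.764), and −0.27 with centred libraries (0.016).

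Of the latrophilins, the receptors of this pairing, Adgrl2 and Adgrl3 rose from cortex through olfactory bulb to cerebellum, as Tenm2 did, while cerebellum was not the highest tissue over the bin of Adgrl1. Adgrl2, a receptor placed on postsynaptic membranes, was at 0.598, 0.569 and 0.572 in cortex, 0.683 and 0.669 in the olfactory bulb and 0.755 and 0.729 in cerebellum. The 3 tissues were fully separate and rose in that order. The log2 ratio was higher by 0.59 in olfactory bulb than in cortex (limma, adjusted p = 2.15e-05), by 1.06 in cerebellum than in cortex (4.11e-15) and by 0.47 in cerebellum than in olfactory bulb (0.00136), the last with an adjusted p of 0.0851 without the cerebellum library of replicate 1 and 0.0597 without the olfactory bulb library of replicate 2. Beyond the median entry these differences were 0.40, 0.73 and 0.34.

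Adgrl3, a latrophilin of excitatory synapses, was at 0.638, 0.652 and 0.620 in cortex, 0.695 and 0.688 in the olfactory bulb and 0.776 and 0.756 in cerebellum, and no ranges overlapped. It was higher by 0.90 in cerebellum than in cortex (limma, adjusted p = 8.4e-12) and by 0.55 in cerebellum than in olfactory bulb (0.000167). The rise of 0.35 from cortex to olfactory bulb passed the test (0.0122), but its adjusted p was 0.18 without the olfactory bulb library of replicate 1, 0.0861 without that of replicate 2 and 0.185 with centred libraries. Beyond the median entry Adgrl3 was at 0.16 in that pair, and at 0.57 and 0.42 in cerebellum against cortex and olfactory bulb.

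Adgrl1, measured in a single bin of 100 kb that it shares with Prkaca, Samd1, Asf1b and Gm10644, was at 0.461, 0.528 and 0.423 in cortex, 0.527 and 0.481 in the olfactory bulb and 0.464 and 0.427 in cerebellum. Cortex spanned the values of cerebellum and reached those of olfactory bulb, while cerebellum lay below olfactory bulb in every library. The log2 ratio of this bin fell by 0.34 from olfactory bulb to cerebellum (limma, adjusted p = 0.0287), with an adjusted p of 0.288 without the cerebellum library of replicate 2 and 0.389 without the olfactory bulb library of replicate 1. The difference was 0.19 between olfactory bulb and cortex (0.181) and −0.15 between cerebellum and cortex (0.252), neither past the test, although the former passed without the cortex library of replicate 2 (0.0193), and the latter passed without that of replicate 3 (0.0113) and came to −0.56 with centred libraries (0.00496). Relative to the median entry the bin was at −0.48 in cerebellum against cortex and −0.47 in cerebellum against olfactory bulb.

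**Figure D1:**
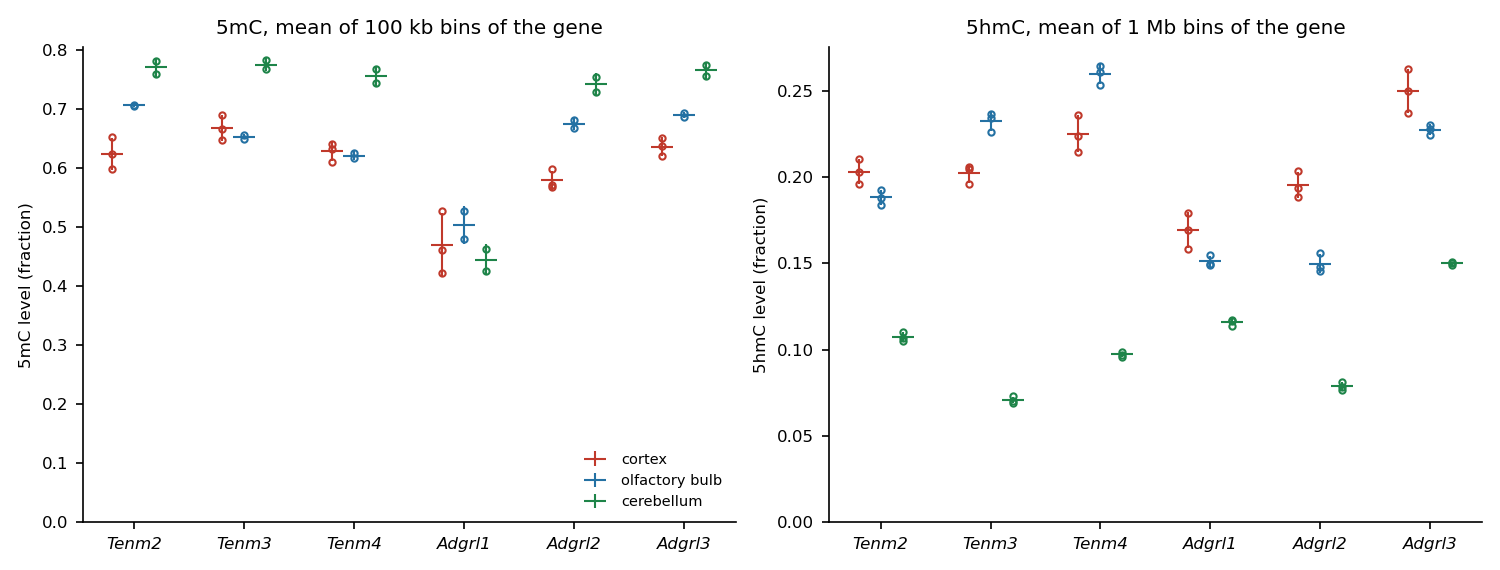
Level of 5mC (left, mean over the 100 kb bins of a gene) and of 5hmC (right, mean over its 1 Mb bins), as a fraction, for the 6 members in cortex, olfactory bulb and cerebellum. Open circles are libraries, horizontal ticks are tissue means and vertical lines are 1 SD. For 5mC the cerebellum libraries sit above the others in every member but Adgrl1, and for 5hmC they sit below the others in all 6.

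Counted together, 5 of 6 members were called higher in cerebellum than in cortex, where 62.8% of all gene entries were, and the median member difference was 0.89 against 0.33 over all entries. Between cerebellum and olfactory bulb 5 were called higher and 1 lower, against 25.4% and 8.32% of all entries, with a median of 0.52 against 0.13. Between olfactory bulb and cortex 3 of 6 were called higher (Tenm2, Adgrl2 and Adgrl3), against 30.5% of all entries, with a median of 0.27 against 0.20. The count in the second pair was 3 higher without the cerebellum library of replicate 1, when Tenm2 (adjusted p = 0.0677, limma) and Adgrl2 (0.0851) missed the threshold.

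5hmC of the members was compared over bins of 1 Mb, and the gene fills 80.5% of its bin for Adgrl3, 74.0% for Tenm4, 61.6% for Tenm3, 61.5% of 2 bins for Tenm2, 17.5% for Adgrl2 and 4.19% for Adgrl1. The values of Adgrl1 and Adgrl2 are thus mostly those of their neighbourhoods, and the bin of Adgrl1 holds 21 other protein-coding genes that of Tenm3 also Dctd and that of Tenm4 also Nars2, which overlaps the 100 kb bins of Tenm4 too. All 6 members had less 5hmC in cerebellum than in either other tissue, although with centred libraries Adgrl1 and Adgrl3 turned to more. In olfactory bulb Tenm3 and Tenm4 had more 5hmC than in cortex, whereas the 3 latrophilins had less, of which only Adgrl2 kept that direction with centred libraries.

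Over Tenm3, 5hmC was 0.205, 0.206 and 0.196 in cortex, 0.234, 0.236 and 0.226 in the olfactory bulb and 0.0694, 0.0704 and 0.0731 in cerebellum. The 3 tissues did not overlap, and olfactory bulb was the highest. The log2 ratio was higher by 0.25 in olfactory bulb than in cortex (limma, adjusted p = 0.00044), lower in cerebellum than in cortex (−1.73) and lower in cerebellum than in olfactory bulb (−1.99). Relative to the median entry these are 0.48, −0.86 and −1.33, and the last difference is the 6th lowest of the 3203 entries in that pair.

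Over Tenm4, 5hmC was 0.224, 0.236 and 0.215 in cortex, 0.261, 0.265 and 0.253 in the olfactory bulb and 0.0972, 0.0957 and 0.0988 in cerebellum, with the same order of tissues and no overlap. The log2 ratio was 0.27 higher in olfactory bulb than in cortex (limma, adjusted p = 0.000161), and cerebellum differed from cortex by −1.43 and from olfactory bulb by −1.70, which relative to the median entry is 0.50, −0.56 and −1.05 in the 3 pairs. Tenm2 did not share the olfactory bulb rise. Its levels were 0.203, 0.211 and 0.196 in cortex, 0.188, 0.193 and 0.184 in the olfactory bulb and 0.107, 0.105 and 0.110 in cerebellum, so that olfactory bulb lay just below cortex. That difference of −0.14 missed the threshold (limma, adjusted p = 0.0611; 0.0201 without the cortex library of replicate 3), while cerebellum was at −1.08 relative to cortex and −0.94 relative to olfactory bulb. Relative to the median entry these are 0.09, −0.21 and −0.29. After centring, the first of the 3 values turned to 0.10 (limma, adjusted p = 0.00268) and the next shrank to −0.04 (0.131).

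Adgrl3 had the highest 5hmC of the members in cortex and cerebellum. It was at 0.250, 0.263 and 0.237 in cortex, 0.228, 0.230 and 0.224 in the olfactory bulb and 0.151, 0.149 and 0.150 in cerebellum. The tissues were separate, in the order cortex, olfactory bulb, cerebellum. The log2 ratios were −0.18 for olfactory bulb against cortex (limma, adjusted p = 0.0155; 0.068 without the olfactory bulb library of replicate 3), −0.91 for cerebellum against cortex and −0.74 for cerebellum against olfactory bulb, and all 3 turned positive with centred libraries, to 0.06, 0.13 and 0.06. Relative to the median entry they were 0.05, −0.04 and −0.08.

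Over the bin of Adgrl2, 5hmC was 0.193, 0.204 and 0.189 in cortex, 0.148, 0.156 and 0.146 in the olfactory bulb and 0.0766, 0.0785 and 0.0813 in cerebellum, in the same order without overlap. It was the member with the lowest value in olfactory bulb against cortex (−0.46; limma, adjusted p = 1.51e-10), and cerebellum differed from cortex by −1.50 and from olfactory bulb by −1.04. Relative to the median entry the 3 values were −0.23, −0.63 and −0.39. The bin of Adgrl1 was at 0.170, 0.179 and 0.158 in cortex, 0.150, 0.155 and 0.149 in the olfactory bulb and 0.117, 0.114 and 0.116 in cerebellum, also separate. Its log2 ratios of −0.19 (0.00908), −0.63 (2.65e-20) and −0.44 (1.17e-10), in the order of pairs used for Adgrl3, turned to 0.05, 0.41 and 0.36 with centred libraries.

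In all, 6 of 6 members were called lower in cerebellum than in cortex and 6 of 6 lower than in olfactory bulb, where 98.4% and 92.5% of all entries were, so that the counts are near the background. The median member difference was −1.26 against −0.87 over all entries in the first pair and −0.99 against −0.65 in the second. Relative to the median entry Adgrl1 was above 0 in these pairs (0.24 and 0.21) and Adgrl3 below (−0.04 and −0.08), while centring put both above 0. Between olfactory bulb and cortex 2 members were called higher (2.53% of entries) and 3 lower (68.9%), with a median of −0.16 against −0.23, and centring made this 4 higher and 1 lower.

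**Figure D2:**
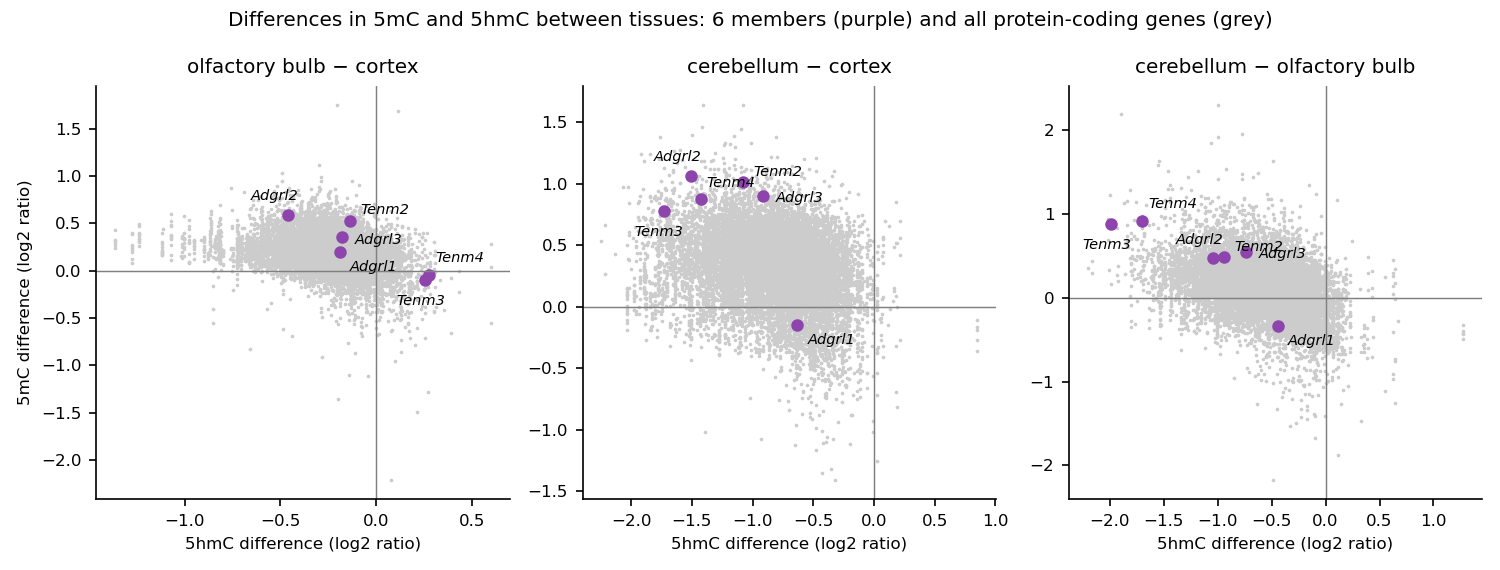
Difference between tissues in 5hmC (horizontal axis) and 5mC (vertical axis) on the log2 ratio scale, with 1 panel per pair of tissues, a purple labelled point per member and a grey point per protein-coding gene. In cerebellum against either other tissue all members but Adgrl1 sit at higher 5mC and lower 5hmC, and in olfactory bulb against cortex only Tenm3 and Tenm4 among the 6 sit at higher 5hmC.

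Because both modifications are read on the same CpG sites, their levels were also added over the same 1 Mb bins, as a description across libraries of different mice. The sum over Adgrl3 was 0.896 ± 0.0202 in cortex, 0.926 ± 0.00496 in the olfactory bulb and 0.922 ± 0.0135 in cerebellum, above the genome mean of 0.840, 0.852 and 0.826. The share of 5hmC in that sum was 27.9%, 24.6% and 16.3% over Adgrl3, where the genome had 19.4%, 17.0% and 11.5%. Tenm4 had the highest share of the members in olfactory bulb, at 29.0%, after 26.1% in cortex, and it had 11.4% in cerebellum. Over Tenm3 the share went from 22.7% in cortex and 25.5% in olfactory bulb to 8.36% in cerebellum, the lowest of the 6. Thus Tenm3 and Tenm4 were above the genome share in cortex and olfactory bulb. In cerebellum Tenm3 was below it, and Tenm4 was close to it (11.4% against 11.5%). The bin of Adgrl2 was also above the genome share in cortex and below it in cerebellum. The shares were 23.5%, 20.6% and 12.1% for Tenm2, 21.3%, 16.5% and 9.04% for the bin of Adgrl2 and 21.8%, 19.2% and 15.2% for the bin of Adgrl1, whose sum of 0.774, 0.786 and 0.761 was below the genome mean.

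**Figure D3:**
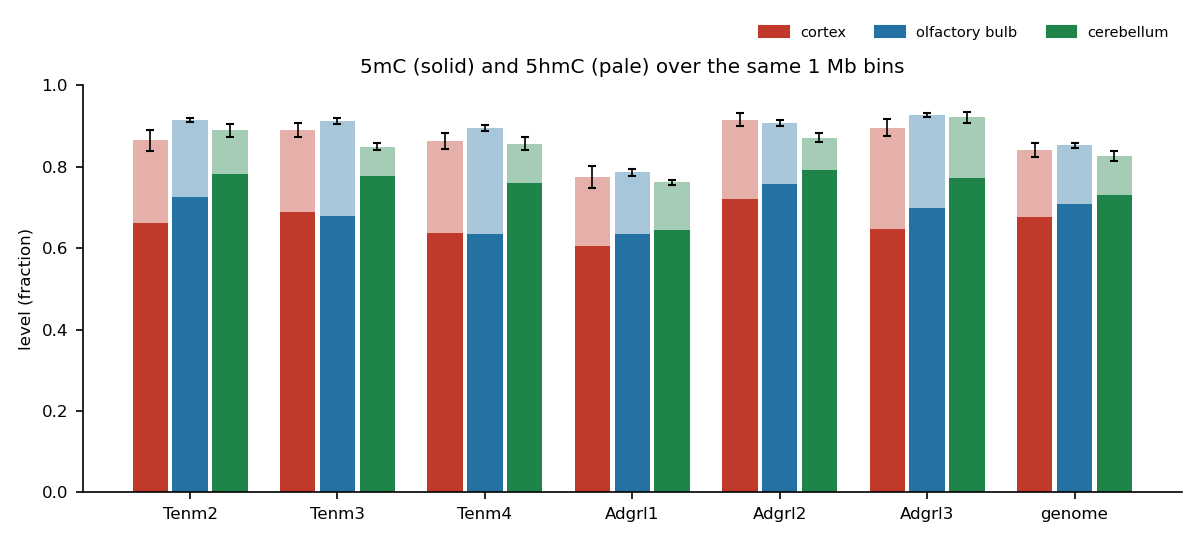
Stacked bars of 5mC (solid) and 5hmC (pale) over the 1 Mb bins of each member and over the genome, as fractions, in cortex, olfactory bulb and cerebellum, with error bars of 1 SD of the sum. The 5hmC part of the bar is smallest in cerebellum in all 6 members, and in Tenm3 it is 0.0709 of a sum of 0.849.

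The order of the members by level was not the same in the 3 tissues. For 5mC in cortex the order was Tenm3, Adgrl3, Tenm4, Tenm2 and Adgrl2, in which each neighbour overlapped the next, and Adgrl1 lay below all of them in every library. In olfactory bulb it was Tenm2, Adgrl3, Adgrl2, Tenm3, Tenm4 and Adgrl1, each below the one before in both libraries. In cerebellum each neighbour among the 5 longer genes overlapped the next, between 0.742 ± 0.0187 (SD, n = 2, Adgrl2) and 0.776 ± 0.0111 (n = 2, Tenm3), and Adgrl1 was again below, at 0.445 ± 0.0263. Tenm2 and Tenm4 thus overlapped in cortex and cerebellum and were apart in olfactory bulb. For 5hmC Adgrl3 and then Tenm4 led in cortex, Tenm4 led in olfactory bulb with Tenm3 and Adgrl3 overlapping behind it, and in cerebellum the order was Adgrl3, Adgrl1, Tenm2, Tenm4, Adgrl2 and Tenm3 with every neighbour separate.

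The bins of 100 kb were used next to show where along each gene the tissues differed. In cerebellum against cortex 40 of the 41 member bins were called higher, against 71.9% of all bins, so that the difference ran along the whole of Tenm2 (13 of 13 bins), Tenm3 (7 of 7), Tenm4 (9 of 9), Adgrl3 (9 of 9) and Adgrl2 (2 of 2). In cerebellum against olfactory bulb 39 were called higher (35.3% of all bins) and 1 lower (7.69%), the last being the bin of Adgrl1. In olfactory bulb against cortex 22 were called higher (37.6%), namely 13 in Tenm2, 7 in Adgrl3 and 2 in Adgrl2, and 1 in Tenm3 was called lower (2.18%). That pair had 14 higher without the olfactory bulb library of replicate 1 and 12 higher and 12 lower with centred libraries. The bin called lower in Tenm3 was not called without cortex replicate 1 or 2 or either olfactory bulb library, nor that of Adgrl1 without cerebellum replicate 2 or olfactory bulb replicate 1. Over all bins, centring moved the share of called bins that were higher from 94.5% to 47.1% in olfactory bulb against cortex, from 94.2% to 51.4% in cerebellum against cortex and from 82.1% to 51.0% in cerebellum against olfactory bulb.

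**Figure D4:**
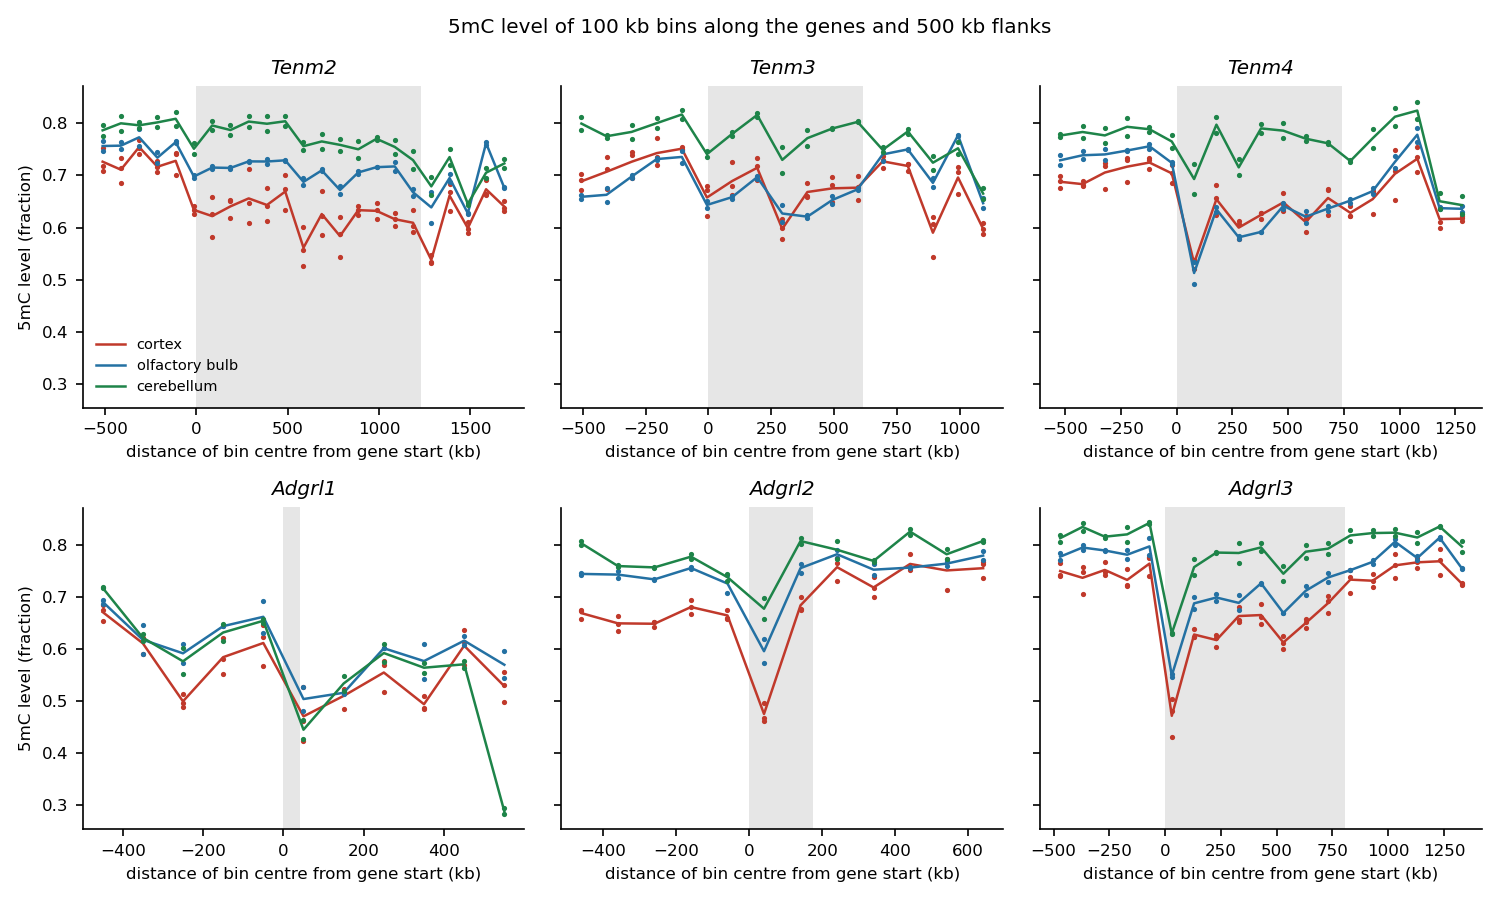
Mean 5mC per 100 kb bin along each member and its flanks of 500 kb, as a fraction, against the distance of the bin centre from the gene start in kb along the direction of transcription. Lines are tissue means, points are libraries and the shaded part is the gene. The cerebellum line runs above the others within all members but Adgrl1, and the level dips near the start of Tenm4, Adgrl2 and Adgrl3.

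Along Tenm2 bin means ran from 0.561 to 0.669 in cortex, 0.668 to 0.729 in the olfactory bulb and 0.729 to 0.804 in cerebellum, and its lowest bin in cortex and in the mean over the tissues, chr11:36600001-36700000, was centred 586 kb from the GENCODE start, at 0.561, 0.688 and 0.756 in the 3 tissues. That bin was also where Tenm2 differed most between cortex and the other tissues. In Tenm3 the bin called lower in olfactory bulb, chr8:48400001-48500000, was at 0.668 in cortex, 0.621 in the olfactory bulb and 0.771 in cerebellum (−0.30 for olfactory bulb against cortex; limma, adjusted p = 0.0325). Tenm4 had the bin with the most pronounced contrast of cerebellum against olfactory bulb among all member bins, chr7:96500001-96600000 centred 379 kb from its first start. The level there was 0.628, 0.629 and 0.617 in cortex, 0.592 and 0.591 in the olfactory bulb and 0.799 and 0.782 in cerebellum, a log2 ratio of 1.38 between the last pair (4.1e-23). Cerebellum was far above all 5 other libraries, and olfactory bulb was just below cortex.

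In Adgrl3, Tenm4 and Adgrl2 the lowest bin held an annotated start. In Tenm2 and Tenm3 it held none of the starts given above, which may not be all annotated starts. The bin of the internal Tenm3 start, chr8:48600001-48700000, had the highest mean over the tissues in that gene. It was at 0.715 in cortex, 0.697 in the olfactory bulb and 0.816 in cerebellum. The bin of the internal Tenm2 start was at 0.656, 0.727 and 0.803. In Adgrl3 the bin with the CpG-rich promoter shown above, chr5:81000001-81100000, was at 0.480, 0.503 and 0.432 in cortex, 0.546 and 0.552 in the olfactory bulb and 0.631 and 0.629 in cerebellum, and the bin just upstream was at 0.764, 0.797 and 0.842. The start bin still differed between the tissues in the same order as the rest of the gene, by 0.93 between cerebellum and cortex (limma, adjusted p = 1.57e-13). In Tenm4 the bin after its first start, chr7:96200001-96300000, which holds the second start with 12 CpG sites in its window, was the lowest of the gene, at 0.532, 0.513 and 0.693 in the 3 tissues, while the bin of the first start, of which the gene takes 28.8 kb, had the highest mean over the 3 tissues, at 0.704, 0.724 and 0.765. In cerebellum other bins of Tenm4 were higher than that one, such as chr7:96300001-96400000 at 0.797. In Adgrl2, chr3:148900001-149000000 was at 0.497, 0.462 and 0.468 in cortex, 0.619 and 0.573 in the olfactory bulb and 0.698 and 0.657 in cerebellum, and its other bin was at 0.684, 0.755 and 0.807. This Adgrl2 bin, which holds both the GENCODE start and the internal RefSeq start, was the one with the largest gain in fraction between cortex and cerebellum among the members, 0.202.

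For the 4 genes with at least 6 bins, the mean of the first bins was compared with that of as many last bins (4 at each end of Tenm2, 3 of Tenm4 and Adgrl3 and 2 of Tenm3) by exact permutation tests, in 12 comparisons of which none can fall below p = 0.1. In Adgrl3 the start minus the end was −0.118 ± 0.00189 (SD, n = 3) in cortex, −0.0882 ± 0.00744 (n = 2) in the olfactory bulb and −0.0750 ± 0.00883 (n = 2) in cerebellum. The start was the lower end in all 7 libraries, and the cortex libraries did not overlap the others. The change of 0.0430 between cerebellum and cortex had an exact p of 0.1 (two-sided; 0.3 after Benjamini-Hochberg adjustment). In Tenm3 the start was also the lower end in each tissue mean, but there the difference was largest in cerebellum. Its start minus end was −0.00250 ± 0.00912 (SD, n = 3) in cortex, −0.0124 ± 0.00972 (n = 2) in the olfactory bulb and −0.0362 ± 0.00774 (n = 2) in cerebellum (exact p = 0.1 for cerebellum against cortex, adjusted 0.3). Cortex ran from −0.0128 to 0.00453 and overlapped olfactory bulb, while cerebellum lay below both. In Tenm2 and Tenm4 the ends differed by at most 0.0332 in any tissue mean.

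To remove shifts shared with the neighbourhood, the level of each gene was set against the mean of the bins within 500 kb on either side. Over the flanks themselves 5mC was 0.749, 0.785 and 0.822 in cortex, olfactory bulb and cerebellum for Adgrl3, 0.706, 0.754 and 0.781 for Adgrl2, 0.675, 0.718 and 0.748 for Tenm2, 0.694, 0.709 and 0.765 for Tenm3 and 0.684, 0.716 and 0.762 for Tenm4, so the neighbourhoods of these 5 also had more in cerebellum. The flanks of Adgrl1 were at 0.567, 0.609 and 0.575, highest in olfactory bulb. In cortex all 6 genes lay below the mean of their flanks. The mean differences were −0.126 for Adgrl2, −0.112 for Adgrl3, −0.0963 for Adgrl1, −0.0554 for Tenm4, −0.0497 for Tenm2 and −0.0261 for Tenm3. The upstream and downstream flanks differed, and Tenm2 (0.625) and Tenm3 (0.668) were not below their downstream flanks (0.622 and 0.666). In cerebellum the differences were −0.0385 for Adgrl2, −0.0557 for Adgrl3 and −0.00571 for Tenm4. Tenm2 and Tenm3 were above the mean of their flanks there, by 0.0230 and 0.0108. Tenm2, Tenm3 and Tenm4 were all below their upstream flanks in cerebellum (0.799, 0.795 and 0.784) and above their downstream flanks (0.698, 0.735 and 0.740). Adgrl1 was at −0.130 there. Tenm3 and Tenm4 were further below their flanks in olfactory bulb than in the other tissues, at −0.0553 and −0.0941.

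Gene minus flanks was called higher in cerebellum than in cortex in 5 of 6 members, where 15.5% of all entries were, with a median of 0.29 against 0.01. The 5 were Tenm2 (0.50; limma, adjusted p = 0.000636), Adgrl2 (0.49, 0.000764), Tenm4 (0.31, 0.00383), Adgrl3 (0.27, 0.0116) and Tenm3 (0.26, 0.0143), and Adgrl1 was at −0.20 (0.274). The same 5 were called higher in cerebellum than in olfactory bulb (14.5% of all entries), led by Tenm4 at 0.57 (0.000184) and Tenm3 at 0.46 (0.00123). In olfactory bulb against cortex, where 5.58% of all entries were called higher and 4.73% lower, 1 member passed, Tenm4 at −0.26 (0.0242), while Tenm2 was at 0.23 (0.0646), Adgrl2 at 0.24 (0.0582) and Tenm3 at −0.20 (0.0906). With flanks of 200 kb, 3 members were called in each cerebellum pair and Tenm4 was not called in olfactory bulb. Without either cerebellum library 3 members were called in cerebellum against cortex, and Tenm3 (adjusted p up to 0.0968 by limma) and Adgrl3 (up to 0.0900) were not; Tenm3 was also lost without cortex replicate 1 (0.0533). In cerebellum against olfactory bulb only Tenm3 and Tenm4 passed whichever library was left out, with 2 members called without any 1 of the cerebellum and olfactory bulb libraries and 3 without cortex replicate 1. The call of Tenm4 in olfactory bulb was lost without cortex replicate 1 (0.0605) or either olfactory bulb library (0.0978 and 0.102), and Tenm2 passed there without cortex replicate 2 (0.0403).

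**Figure D5:**
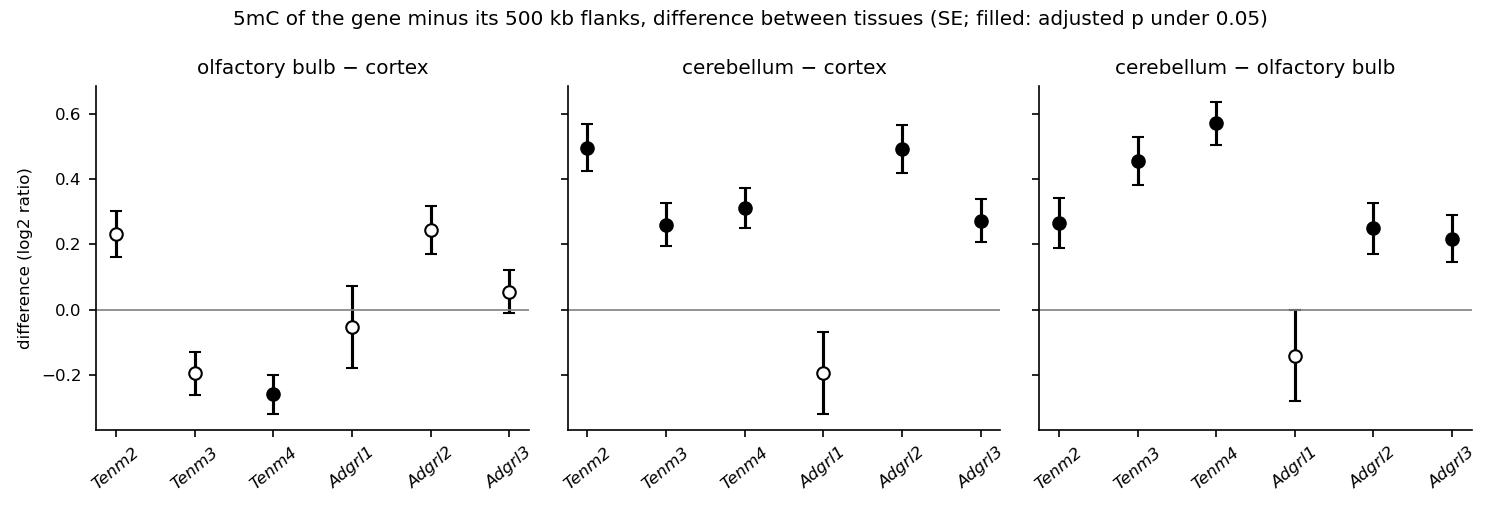
Difference between tissues in 5mC of the gene minus that of the bins within 500 kb on either side, on the log2 ratio scale, for the 6 members in each pair of tissues. Points are estimates of the fit with bars of 1 standard error, filled where the adjusted p from limma is under 0.05. All members but Adgrl1 are filled and above 0 in both cerebellum panels, and in olfactory bulb against cortex only Tenm4 is filled, at −0.26.

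For 5hmC the flanks of Adgrl3 were at 0.135, 0.106 and 0.0597 in cortex, olfactory bulb and cerebellum, and the gene exceeded them by 0.115, 0.122 and 0.0903. The bin of Adgrl3 was thus above its surroundings in every tissue, and no protein-coding gene other than Adgrl3 lies within 500 kb. The bin of Tenm4 exceeded the mean of its flanks by 0.0373 in cortex, 0.0948 in the olfactory bulb and 0.00563 in cerebellum. In cerebellum its level of 0.0972 lay between upstream (0.0462) and downstream (0.137) flanks that were far apart. Tenm3 was 0.0154 and 0.0266 above the mean of its flanks in cortex and olfactory bulb and at −0.0105 in cerebellum. In cortex Tenm3 (0.202) was above its upstream flank (0.164) and below its downstream flank (0.210), and in cerebellum (0.0709) it also lay between them (0.0605 and 0.102). Tenm2 was below its flanks in all 3 tissues (−0.0083, −0.00694 and −0.0557), where they are a single bin downstream of the gene.

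The other genes of the pathway were these 18: the X-linked teneurin Tenm1, the related receptor Adgrl4, the latrophilin ligands Flrt1, Flrt2 and Flrt3, the presynaptic neurexins Nrxn2 and Nrxn3, the adhesion molecule Cntn6, the FLRT-binding netrin receptors Unc5a to Unc5d, the postsynaptic scaffolds Shank1 to Shank3, the G protein subunits Gna12 and Gna13, and the dystroglycan gene Dag1. For 5mC 11 of 18 were called higher in cerebellum than in cortex and 2 lower, against 62.8% and 4.54% of all entries, with a median of 0.36, near that of all entries. Flrt2, a ligand of both Unc5 receptors and latrophilins, was higher by 1.24, Unc5d by 0.89 and Adgrl4 by 0.80, whereas Tenm1 (−0.29) and Unc5b (−0.28) were lower. With centred libraries the counts were 4 higher and 7 lower, and the count lower ranged from 0 to 4 with 1 library left out.

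In olfactory bulb against cortex 9 of the 18 had higher 5mC and 2 lower, against 30.5% and 1.31% of all entries, the last being Nrxn2 (−0.41) and Nrxn3 (−0.42), and the median was 0.23. The count higher was 3 without the olfactory bulb library of replicate 1 and 4 with centred libraries. In cerebellum against olfactory bulb 7 were higher and 3 lower, against 25.4% and 8.32% of all entries, with Nrxn3 at 0.69 and Tenm1 at −0.56, Unc5b at −0.44 and Unc5c at −0.61, and the median was 0.12. The count higher there was 2 without the olfactory bulb library of replicate 2, 3 without that of replicate 1 and 3 without the cerebellum library of replicate 1. With centred libraries it was 4 higher and 6 lower. Tenm1 differed in sign from the 3 autosomal teneurins in both cerebellum pairs. For 5hmC 17 of 18 were lower in cerebellum than in cortex, where 98.4% of all entries are lower and 0.219% higher, with Flrt2 at −1.92, while Tenm1 was not called, at −0.08. Between cerebellum and olfactory bulb 14 were lower and Tenm1 alone was higher (0.35), against 92.5% and 0.843% of all entries, and between olfactory bulb and cortex 11 were lower and Nrxn3 alone was higher (0.35), against 68.9% and 2.53%. The medians were −0.52, −0.42 and −0.19 in these pairs. With centred libraries 3 were lower in cerebellum than in cortex, and the number higher was not counted. Before centring, the median of −0.52 in that pair lay above the −0.87 of all entries. With centred libraries 13 were higher and 3 lower in cerebellum than in olfactory bulb, and 8 were higher and 4 lower in olfactory bulb than in cortex.

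The genes of other families closest to a member in 5mC over all 7 oxBS-seq libraries were taken from the 445 genes that overlap at least 5 bins, by the Euclidean distance of their gene means. Closest to Tenm2 were Gabrb1 (0.0290), Plxna4 (0.0316) and Rasgef1b (0.0328). Closest to Tenm3 were Ano4 (0.0184), Kcnn2 (0.0283) and Kcnb2 (0.0294), and closest to Tenm4 were Dlgap2 (0.0173), Slc8a1 (0.0304) and Plcb1 (0.0328). Adgrl3 was nearest to Camk1d (0.0254), Fhod3 (0.0267) and Erc2 (0.0282). Dlgap2, the nearest of all 12, had means of 0.625, 0.615 and 0.758 in cortex, olfactory bulb and cerebellum beside 0.629, 0.622 and 0.756 for Tenm4.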

How the data were processed

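Levels of 5mC (oxBS-seq) and 5hmC (TAB-seq) were measured in cortex, olfactory bulb and cerebellum, and each of the 16 libraries was grouped and numbered by its label. The authors mapped reads uniquely to mm10 with Bismark (version not given in the sources used here) and deposited for each library the modified fraction per bin, without coverage. The way CpG sites were combined into a bin is not given in the sources used here. The RNA-seq samples were not analysed here.

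Bins at 0 or 1 in at least 1 library of the assay were dropped, which left 25664 bins of 100 kb and 2581 of 1 Mb. The levels of all bins overlapping a protein-coding gene of GENCODE release M 21 were averaged without weights, and genes with the same bins formed 1 entry. Entries, bins of 100 kb and gene minus flanks (500 kb on either side) were compared by limma (version 3.58.1, R 4.3.3) after conversion to log2(level/(1 − level)), with 3 tissues in one fit per assay and Benjamini-Hochberg adjustment over all entries. Standard errors were 0.07 for 5hmC, 0.11 to 0.13 for 5mC genes and 0.06 to 0.14 for gene minus flanks. Single values used two-sided exact permutation tests, whose smallest p is 0.1 (3 against 3 or 2 against 3) or 0.333 (2 against 2). Python 3.11.15, numpy 2.4.6, pandas 2.3.3 and matplotlib 3.10.9 served for the rest. The tests were checked on simulated data with known changes in 200 entries, for cerebellum against cortex. The noise was independent, with a common spread for all entries and no shift of whole libraries. The data differ in this and have many more changed entries, so the rates hold for the simulated setting only. A log2 change of 0.2 was recovered in 2% of changed 5mC genes, 0% of bins, 3% for gene minus flanks and 32.5% of 5hmC genes. For a change of 0.5 these were 77%, 74%, 97.5% and 100%. Unchanged entries called in the same order numbered 0, 0, 1 and 3 for a change of 0.2 and 11, 8, 9 and 5 for 0.5. A small difference that did not pass a test is thus not shown to be absent.

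The members and the list of other genes were chosen with earlier results of these data known, and 1 gene of that list is not reported here. Genes named were the members, that list, and for each member with at least 5 bins the 3 genes nearest in 5mC; bins named were the lowest, the highest and the most different of each member, the bins of their starts and those called apart from the rest. Sequences came from RefSeq GRCm38.p6. Alternatives tried were the fraction scale, centring of libraries, bins wholly inside a gene, weighting by overlap, no filter on bins, trended and robust variances, replicate numbers as a block, each library left out, flanks of 200 kb or 1 Mb and fewer bins at each end of a gene.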

Additional observations from a re-analysis of the deposited data

How the results depend on the processing

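Values without coverage limit precision to the spread between 2 or 3 libraries. With centred libraries the 5hmC differences of Adgrl1 (0.051, 0.41 and 0.36) and Adgrl3 (0.0641, 0.13 and 0.0644) in olfactory bulb against cortex, cerebellum against cortex and cerebellum against olfactory bulb, and of Tenm2 (0.10) in the first pair, reversed, by construction of the shift removed. The same alternative gave 4 higher and 1 lower member for 5hmC in the first pair, 3 lower in cerebellum against cortex and, for bins in the first pair, 12 higher and 12 lower. For the 18 other genes it gave, for 5mC, 4 higher in the first pair, 4 higher and 7 lower in the next and 4 higher and 6 lower in the last. For 5hmC it gave 8 higher and 4 lower, 3 lower with the number higher not counted, and 13 higher and 3 lower.

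Bins wholly inside a gene, which Adgrl1 and Adgrl2 lack, gave 0 lower members for 5mC in cerebellum against olfactory bulb. For the other genes they gave 4 higher and 1 lower in olfactory bulb against cortex, 4 and 1 in cerebellum against cortex and 3 higher in the last pair. Of these other genes only Tenm1, Nrxn3, Cntn6, Unc5c, Unc5d and Shank2 hold such a bin, so the rest of the list was not tested. These counts are thus not out of 18. Such bins also gave 1 higher and 2 lower for gene minus flanks in olfactory bulb against cortex. Olfactory bulb levels with them were 0.711 for Tenm2, 0.603 for Tenm4 and 0.703 for Adgrl3. Weighting by overlap gave 0.608 for Tenm4 in olfactory bulb. Without the filter on bins, 0 member bins were lower in olfactory bulb against cortex or cerebellum against olfactory bulb. For gene minus flanks, flanks of 200 kb gave 0 lower in olfactory bulb against cortex and 3 higher in each cerebellum pair, flanks of 1 Mb 2 higher in olfactory bulb against cortex, the fraction scale 1 higher there, and the RefSeq spans, an alternative chosen after seeing the data, 2 lower there (Tenm3 at −0.31, adjusted p = 0.0166 by limma). The causes were not tested.

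Leaving out 1 library, where a lone library is assumed to vary like the others, gave 3 to 5 higher and 0 to 1 lower members for 5mC in cerebellum against olfactory bulb. Over member bins it gave 14 to 23 higher in olfactory bulb against cortex (14 without olfactory bulb replicate 1), with 0 to 1 lower there and in cerebellum against olfactory bulb. Gene minus flanks ranged over 0 to 1 higher and 0 to 1 lower in olfactory bulb against cortex, 3 to 5 higher in cerebellum against cortex and 2 to 5 higher in the last pair. The other genes for 5mC ranged over 3 to 10 higher and 0 to 2 lower, 0 to 4 lower, and 2 to 7 higher and 2 to 4 lower in the 3 pairs, with the lowest counts higher without olfactory bulb replicate 1 (3) in the first and replicate 2 (2) in the last, and the most lower without cortex replicate 3 (4) in the second. The start minus end of Tenm2 in olfactory bulb against cortex ranged from −0.0100 to 0.00283, that of Tenm4 in cerebellum against cortex from −0.0158 to 0.0165 and in cerebellum against olfactory bulb from −0.00518 to 0.0270.

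Replicate numbers were taken from the labels and differ from those in the names of the deposited oxBS-seq files, and whether they pair the libraries was not settled. Deviations from tissue means of same-numbered libraries correlated at −0.0695, 0.0219 and −0.0193 for 5mC and 0.0756, −0.0844 and 0.292 for 5hmC on average. For 5mC in cerebellum against cortex 4 of 5 libraries correlated best with their own number, and cortex replicate 3 had no same-numbered partner. For 5hmC in cerebellum against olfactory bulb 4 of 6 did, and libraries of different numbers correlated at −0.139 there. In the remaining comparisons 0 or 2 libraries did. The replicate block gave 4 lower other genes for 5mC in cerebellum against cortex and 0 lower members for gene minus flanks in olfactory bulb against cortex (Tenm4, adjusted p = 0.0746 by limma).

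Over all entries for 5mC, the count called higher was 4263, 8788 and 3560 in the 3 pairs and 689, 2072 and 2134 with centred libraries. It was 728, 1195 and 881 with bins wholly inside a gene, where fewer entries were tested.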

Other observations

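In the neighbourhood of the members, the lowest bin in cerebellum was chr8:84400001-84500000, which lies downstream of Adgrl1 over Cacna1a, the gene of a neuronal calcium channel. It was at 0.529 ± 0.0293 (SD, n = 3) in cortex, 0.570 ± 0.0366 (n = 2) in the olfactory bulb and 0.289 ± 0.00829 (n = 2) in cerebellum, the opposite direction to the long members, and it was chosen after its values were seen. RefSeq extends Tenm3 upstream, to chr8:48225665-49522824 (1297 kb), so the upstream flank of Tenm3 used in the report is gene body in that annotation, with 5mC of 0.723 in cortex, 0.697 in the olfactory bulb and 0.795 in cerebellum. Over this upstream stretch cortex, olfactory bulb and cerebellum stood in the same order as over the GENCODE span. The flanks of Adgrl2, where no other protein-coding gene lies within 500 kb, were unequal in cortex, at 0.662 upstream and 0.749 downstream.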
